A study of Mus musculus with 4 samples.

Results

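Glucose enters a mammalian cell through facilitative transporters of the Slc2a (GLUT) family and is held there when a hexokinase adds a phosphate to it. The genes described here are 4 hexokinase genes (Hk1, Hk2, Hk3 and Hkdc1) and 5 glucose transporter genes (Slc2a1, Slc2a2, Slc2a3, Slc2a4 and Slc2a8), 9 of the 54838 genes listed in each file. Their rows were taken by gene symbol, and the 9 genes were chosen with earlier results of these data known. RNA was sequenced from Hepa1-6, a mouse hepatocellular carcinoma cell line, in 4 libraries. The NC group (2 libraries) is wild type for Acvr2a, the gene of a type II activin receptor, and the KO group (2 libraries) carries an Acvr2a knockout; no treatment, time or passage is given for either group. The series title names lactate production and glycolysis, and glucose uptake and phosphorylation are the first steps of that route. The design text calls the knockout cells subclones without saying how many clones there were or whether NC is a clone. No label says that the 2 libraries of a group came from separate cultures, so p-values measure the spread between these libraries, which may be technical.

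The members differ in affinity, place and usual tissue. Hk1 and Hk2 encode high-affinity hexokinases that can dock on the outer mitochondrial membrane, Hk3 encodes a form found mainly in white blood cells, and Hkdc1 encodes the fifth, most recently described hexokinase. Adult hepatocytes take up glucose through the low-affinity transporter GLUT2 (Slc2a2), and tumour cells of the liver commonly carry Hk2 and GLUT1 (Slc2a1). GLUT3 (Slc2a3) is the high-affinity transporter of neurons, GLUT4 (Slc2a4) the insulin-responsive transporter of muscle and fat, and GLUT8 (Slc2a8) a transporter held mostly on internal membranes.

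Promoter sequence was available from RefSeq (GRCm38.p6) for 7 of the 9 members, in 8 windows because RefSeq gave 2 starts for Hk1. Slc2a3 and Slc2a4 had no entry. GENCODE lists further Hk1 starts, such as that of Hk1-201 at 62358362, for which no window was available. The 250 bases before the start are shown for the 3 members with the most reads among these 7. Slc2a8, the next by reads, is shown as well. Hkdc1 had fewer reads and a larger log2 fold change than Slc2a8 (1.06 against 0.94), and its window is described below without being printed. Shared control of these promoters was not tested. Each sequence is 5′ to 3′ on the strand of the gene, and capitals mark every match on either strand to ACGTG or GCGTG, the core letters of the element bound by hypoxia-inducible factors, and to GGGCGG, the core of an Sp1 site.
Hk1, first start (chr10:62379909-62380158, minus strand): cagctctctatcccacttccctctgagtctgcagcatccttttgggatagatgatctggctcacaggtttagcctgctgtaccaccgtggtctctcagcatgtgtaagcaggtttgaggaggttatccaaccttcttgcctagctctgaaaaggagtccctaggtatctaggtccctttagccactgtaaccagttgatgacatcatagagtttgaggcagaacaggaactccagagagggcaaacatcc
Hk2 (chr6:82774455-82774704, minus strand): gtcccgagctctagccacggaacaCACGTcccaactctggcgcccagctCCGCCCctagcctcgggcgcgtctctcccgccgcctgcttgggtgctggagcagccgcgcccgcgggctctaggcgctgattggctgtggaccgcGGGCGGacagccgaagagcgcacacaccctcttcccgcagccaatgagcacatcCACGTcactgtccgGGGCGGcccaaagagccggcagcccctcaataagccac
Slc2a1 (chr4:119108495-119108744, plus strand): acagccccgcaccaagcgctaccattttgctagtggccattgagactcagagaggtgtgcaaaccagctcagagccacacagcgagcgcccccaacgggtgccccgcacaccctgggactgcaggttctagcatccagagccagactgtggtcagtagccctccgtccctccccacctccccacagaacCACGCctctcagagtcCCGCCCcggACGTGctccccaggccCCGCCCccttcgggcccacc
Slc2a8 (chr2:32982084-32982333, minus strand): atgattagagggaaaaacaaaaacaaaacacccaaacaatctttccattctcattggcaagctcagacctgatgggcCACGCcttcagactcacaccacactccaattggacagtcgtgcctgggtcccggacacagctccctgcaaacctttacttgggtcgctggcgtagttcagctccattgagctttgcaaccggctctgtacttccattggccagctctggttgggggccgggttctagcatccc
With the start site as 0, the Hk2 window held 2 matches to ACGTG, which begin at -226 and -52, and 3 to GGGCGG. The Slc2a1 window held 1 match to ACGTG (at -36), 1 to GCGTG and 2 to GGGCGG, and GENCODE places the first base of Slc2a1-201 near its end, at 119108711. The Slc2a8 window held 1 match to GCGTG. The window of the second Hk1 start (chr10:62340422-62340671) held 3 matches to GCGTG, the last 2 overlapping. It is not printed because GENCODE starts the transcript Hk1-202 well inside it, at 62340542. The printed Hk1 window is that of the transcript Hk1-203, and which of the annotated starts gives most Hk1 RNA was not tested. The windows of the first Hk1 start, Hkdc1 and Slc2a2 held no match to any of these 3 motifs, and that of Hk3 held 1 to ACGTG. Over all 32851 windows of this length in the RefSeq table, 16.6% held ACGTG, 28.2% GCGTG and 32.7% GGGCGG. The longer motif CACGTG, which contains ACGTG and is bound by Myc and ChREBP family factors, was in 6.02% of all windows and in none of the members' 8. CAGAC, a core that SMAD proteins bind, was in 42.2% of all windows and occurred in those of Slc2a1, Slc2a2, Slc2a8 and the first Hk1 start. The GC content was 69.6% in the Hk2 window, 66.4% in that of Slc2a1, 62.8% at the second Hk1 start, 49.6% at the first and 52.8% in that of Slc2a8, against a median of 52.4% over all windows. These matches describe letters only, and no binding was measured here.

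Library totals lay between 11597923 and 13910582 counts. Acvr2a itself was counted 81 and 108 times in NC and 75 and 97 times in KO, a log2 fold change of -0.21 (SE 0.20, edgeR quasi-likelihood, adjusted p = 0.433), so its RNA level did not separate the groups. The labels do not say which part of the gene was edited, reads outside that part check nothing, and the group names follow the labels. The hepatocyte and hepatoma markers (8 genes, among them Alb, Krt8 and Krt18) summed to between 3304 and 3541 CPM (counts scaled to library size) in NC and between 3657 and 3687 in KO. Of these 8, Ttr was at or near 0, and Apoa1 was low, at 1.76 and 1.59 CPM in NC and 2.96 and 1.26 in KO. Of 7 tested, 2 rose (Alb by 0.41 and Trf by 0.54 in log2 units) and 2 fell (Hnf4a, and Afp, the fetal liver protein gene, from 281 and 254 CPM to 114 and 116). Across all genes 4741 of 12510 tested (37.9%) passed an adjusted p of 0.05, 2459 of them (19.7%) higher in KO and 2282 (18.2%) lower. In bulk RNA, fewer cells carrying a transcript and less of it per cell cannot be told apart.

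Of the 9 members, 7 passed edgeR's filter on low counts, and all 7 of these rose in KO at an adjusted p under 0.05, beside the 19.7% of all tested genes that did so. Their median log2 fold change was 0.90, where the median of all tested genes was -0.0037. In each of the 7 both KO libraries lay above both NC libraries, as they did for 34.8% of all tested genes. The rises ran from 0.28 on the log2 scale for Slc2a1 to 1.91 for Slc2a4. The other 2 members, Hk3 and Slc2a2, had at most 1 count in any library and were not tested. The 7 calls were not equally firm. Without NC 1, or without KO 1, 4 of the 7 passed, and those that lost the call were Hk2, Hkdc1 and Slc2a1 both times. Without NC 2 or without KO 2, 6 passed, the exceptions being Slc2a1 and Hkdc1 in that order.

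**Figure D1:**
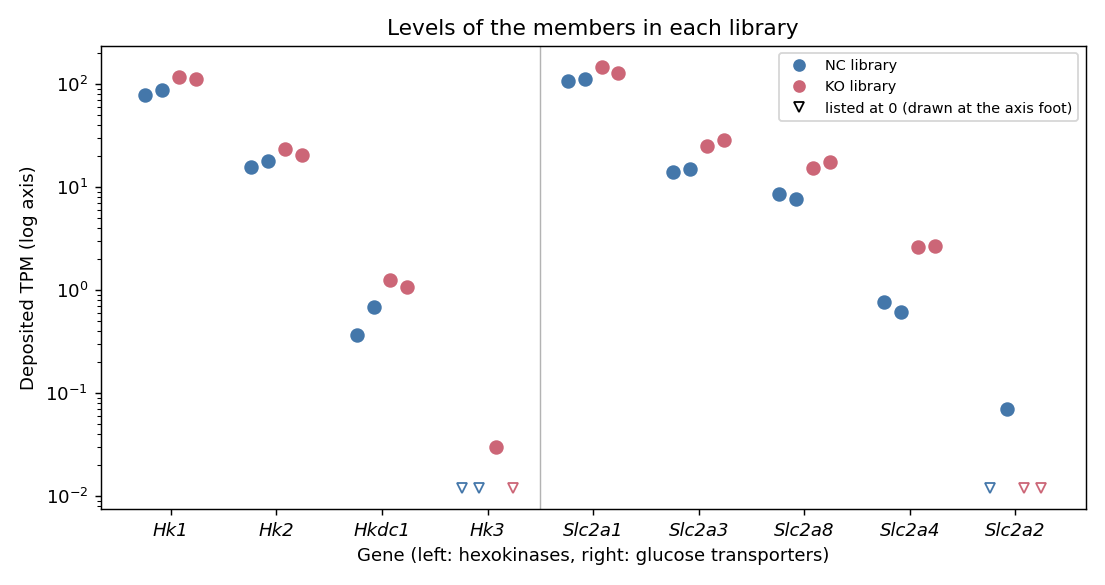
Deposited TPM of the 9 members in each of the 4 libraries, on a log axis, with NC in blue and KO in red and open triangles for values listed at 0. In the 7 genes above 0.1 TPM both KO points sit above both NC points, while Hk3 and Slc2a2 have a single point each above 0.

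Among the hexokinases, Hk1 carried most of the RNA. Its gene (ENSMUSG00000037012.18) lies on chromosome 10 at 62268855 to 62379908 on the minus strand of GRCm38. Hk1 was counted 3140 and 4084 times in NC 1 and NC 2, and 4986 and 5032 times in KO 1 and KO 2. In CPM these were 276, 295, 378 and 373. The 2 KO libraries were close together and above both NC libraries. Mean CPM was 286 ± 13.2 in NC and 375 ± 4.19 in KO (n = 2 each, ± SD), and Hk1 rose 1.31-fold (log2 0.39, SE 0.09, 95% interval 0.21 to 0.58; edgeR quasi-likelihood, adjusted p = 0.00110). Its exons share 157 bases with Hk1os, an antisense gene with 54 to 66 counts per NC library and 63 to 84 per KO library. The part of overlapping reads was not tested.

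Hk2 (ENSMUSG00000000628.10, chromosome 6, 82725025 to 82774454, minus strand) encodes the hexokinase most often linked to the glycolysis of tumours, and its level was well under that of Hk1. It was counted 822 and 1132 times in NC 1 and NC 2, and 1393 and 1243 times in KO 1 and KO 2, or 72.3, 81.7, 105.7 and 92.0 CPM. The KO values lay above the NC values, with a gap between NC 2 and KO 2 of about the same size as the spread within each group. Hk2 rose 1.28-fold (log2 0.36, SE 0.10, 95% interval 0.16 to 0.56; edgeR quasi-likelihood, adjusted p = 0.00530). The call was lost without NC 1 (log2 fold change 0.27, adjusted p = 0.112) and without KO 1 (0.25, adjusted p = 0.0628). It was also lost with limma on TPM (transcript abundance scaled by length and library size), where the adjusted p was 0.104 with a pseudocount of 1 and a filter on low values.

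Hkdc1 (ENSMUSG00000020080.8, chromosome 10, 62383137 to 62422491, minus strand) lies next to Hk1 on the same strand, with 3228 bases between the 2 genes, and Hkdc1 is the upstream neighbour. It was counted 13 and 28 times in NC 1 and NC 2, and 47 and 43 times in KO 1 and KO 2. NC 1 stood below NC 2 by more than the 2 KO libraries differed. Mean CPM was 1.58 ± 0.62 in NC and 3.38 ± 0.27 in KO (n = 2 each, ± SD), and Hkdc1 rose 2.09-fold (log2 1.06, SE 0.35, 95% interval 0.34 to 1.78; edgeR quasi-likelihood, adjusted p = 0.0165). The counts were small and the interval wide, and the call was lost with DESeq2 (adjusted p = 0.164), in each TPM fit, and without NC 1 (log2 0.73, adjusted p = 0.170), KO 1 (adjusted p = 0.105) or KO 2 (adjusted p = 0.0521). Without NC 2 the log2 fold change was 1.55.

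Hk3 (ENSMUSG00000025877.14, chromosome 13, 55005985 to 55021385) was counted once in KO 1 and not at all in the other libraries. A count of 0 allows up to 3 counts, or between 0.216 and 0.259 CPM at these depths, which covers counting error only. Neutrophil markers were as scarce: S100a8, Mpo and Csf3r had 0 counts in every library and the 5 genes together reached at most 0.228 CPM.

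Slc2a1 was the glucose transporter gene with the most RNA. The gene (ENSMUSG00000028645.11) spans 119108711 to 119137983 of chromosome 4, plus strand. It was counted 3334 and 4121 times in NC 1 and NC 2, and 4931 and 4607 times in KO 1 and KO 2, or 293, 298, 374 and 341 CPM. The NC libraries were nearly equal, and KO 2 lay between them and KO 1. Slc2a1 rose 1.21-fold (log2 0.28, SE 0.09, 95% interval 0.089 to 0.46; edgeR quasi-likelihood, adjusted p = 0.0184), the smallest rise of the 7. The log2 fold change was 0.21 without KO 1 (adjusted p = 0.115), 0.26 without NC 1 (adjusted p = 0.111) and 0.29 without NC 2 (adjusted p = 0.0684), so the call depended on each of these libraries. In the filtered TPM fits the adjusted p was 0.0943 and 0.0999. Slc2a1 shares 105 exonic bases with the antisense gene Gm12868, which had 0 counts in all 4 libraries.

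Slc2a3 (ENSMUSG00000003153.10, chromosome 6, 122727809 to 122801640, minus strand) had the lowest p of the members. It was counted 536 and 671 times in NC 1 and NC 2, and 1062 and 1314 times in KO 1 and KO 2, or 47.1, 48.5, 80.6 and 97.3 CPM. The NC libraries were nearly equal, and KO 2 exceeded KO 1. Slc2a3 rose 1.86-fold (log2 0.90, SE 0.10, 95% interval 0.68 to 1.11; edgeR quasi-likelihood, adjusted p = 1.38e-07). Its interval lay wholly above that of Slc2a1. Leaving out a library gave values from 0.75 (without KO 2) to 1.02 (without KO 1), and the call held in each. The 3 genes, predicted genes left out, whose centred log2 CPM profile over the 4 libraries was nearest to that of Slc2a3 were Kctd11, Cirbp and Onecut2, at Euclidean distances of 0.018, 0.023 and 0.025. With 4 libraries, many genes of a similar fold lie close to it.

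Slc2a8 (ENSMUSG00000026791.14, chromosome 2, 32972990 to 32982083, minus strand) was counted 168 and 176 times in NC 1 and NC 2, and 318 and 386 times in KO 1 and KO 2. In CPM this was 14.8, 12.7, 24.1 and 28.6, with both KO values well clear of the NC values. It rose 1.92-fold (log2 0.94, SE 0.14, 95% interval 0.65 to 1.23; edgeR quasi-likelihood, adjusted p = 7.48e-06).

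Slc2a4 (ENSMUSG00000018566.14, chromosome 11, 69942539 to 69948188, minus strand) had the largest fold change of the tested members and a low level. It was counted 17 and 16 times in NC 1 and NC 2, and 63 and 69 times in KO 1 and KO 2. The libraries within each group were close together and the groups far apart. Mean CPM was 1.33 ± 0.24 in NC and 4.95 ± 0.23 in KO (n = 2 each, ± SD). Slc2a4 rose 3.75-fold (log2 1.91, SE 0.34, 95% interval 1.22 to 2.59; edgeR quasi-likelihood, adjusted p = 3.65e-05). On the log2(TPM + 1) scale, which shrinks changes of low genes, the value was 1.10. The defining muscle and fat genes were at or near 0. Plin1 had 0 counts in all libraries, Adipoq, Myh4 and Ckm had at most 3 in any library, and the 5 marker genes, Acta1 among them, summed to between 0.792 and 1.23 CPM in NC and between 0.518 and 1.29 in KO.

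Slc2a2 (ENSMUSG00000027690.13, chromosome 3, 28697903 to 28731359, plus strand), the transporter of adult hepatocytes, had 1 count in NC 2 and 0 in the other libraries, so no difference was detectable at this depth. Hepatocyte factors known to act at this gene were expressed nonetheless. The nuclear receptor gene Hnf4a averaged 222 ± 7.23 CPM in NC and 111 ± 7.37 in KO (n = 2 each, ± SD), and Foxa2 averaged 110.6 ± 2.82 and 59.5 ± 0.68.

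**Figure D2:**
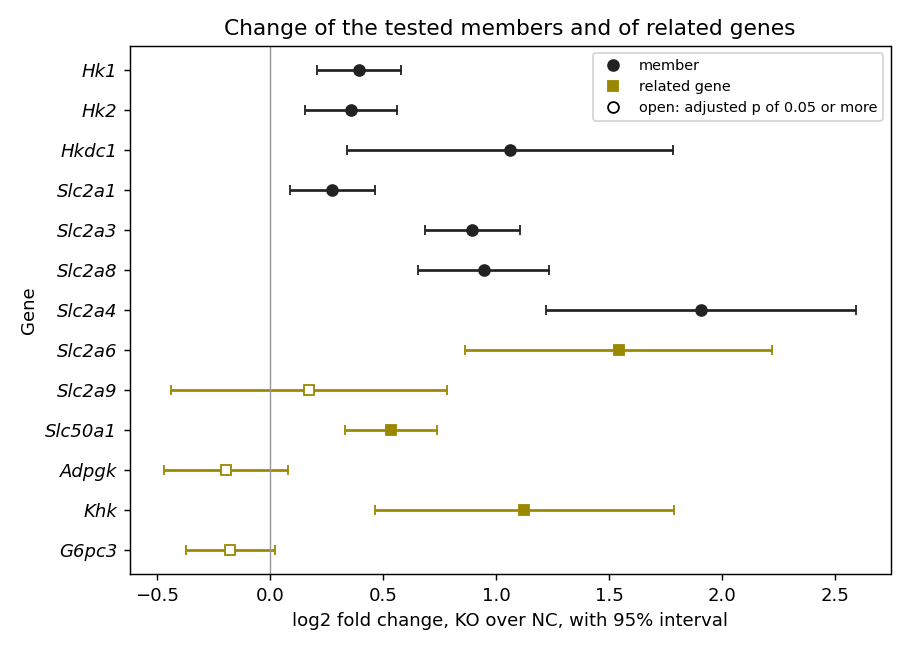
Log2 fold changes of KO over NC with 95% intervals for the 7 tested members (circles) and for 6 related genes (squares), with open symbols where the adjusted p was 0.05 or more. All 7 members lie to the right of 0, from 0.28 (Slc2a1) to 1.91 (Slc2a4), and the intervals are widest for Slc2a4 and Hkdc1, which had the fewest counts.

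TPM, being scaled by length, put the members on a common scale. In NC the order of mean TPM was Slc2a1 (108.6 ± 3.74), Hk1 (82.7 ± 6.13), Hk2 (16.8 ± 1.61), Slc2a3 (14.4 ± 0.60), Slc2a8 (8.13 ± 0.57), Slc2a4 (0.690 ± 0.113) and Hkdc1 (0.530 ± 0.226), each as SD with n = 2. The NC libraries overlapped only for the neighbours Slc2a4 and Hkdc1. In KO the order was Slc2a1 (136 ± 13.4), Hk1 (113 ± 4.04), Slc2a3 (27.0 ± 2.55), Hk2 (22.0 ± 1.85), Slc2a8 (16.4 ± 1.55), Slc2a4 (2.63 ± 0.05) and Hkdc1 (1.17 ± 0.13), and no neighbours overlapped. Slc2a3 and Hk2 thus exchanged places. The TPM ratio of Slc2a3 to Hk2 was 0.894 and 0.828 in NC 1 and NC 2, and 1.08 and 1.39 in KO 1 and KO 2. With 2 libraries against 2, an exact two-sided permutation test cannot go below 0.333, which is the value it gave here, so this and the shares below are descriptions.

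The makeup of the hexokinase RNA differed little between the groups. Hk1 made up 83.0% and 82.4% of the summed hexokinase TPM in NC 1 and NC 2, and 82.5% and 83.5% in KO 1 and KO 2. Hk2 made up 16.56% and 16.96% in NC 1 and NC 2, and 16.55% and 15.65% in KO 1 and KO 2. The groups overlapped for Hk1. For Hk2 both KO values lay below both NC values, KO 1 only just below NC 1. The Hkdc1 share was 0.392% and 0.653% in NC and 0.897% and 0.818% in KO. The summed hexokinase TPM was 94.4 and 105.7 in NC and 140.5 and 132 in KO, a ratio of means of 1.36.

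The transporter RNA changed in makeup as well as in amount. Its summed TPM was 129 and 134 in NC and 189 and 176 in KO, a ratio of means of 1.38, close to that of the hexokinases. Slc2a1 made up 82.0% and 82.7% of it in NC 1 and NC 2, and 77.2% and 72.1% in KO 1 and KO 2. The share of Slc2a3 was 10.8% and 11.0% in the NC libraries, against 13.3% and 16.4% in the KO libraries. For Slc2a8 the shares were 6.61% and 5.75% against 8.11% and 9.96%. Slc2a4 remained a small part, at 0.596% and 0.454% in NC and 1.37% and 1.51% in KO. The ratio of Slc2a1 to Slc2a3 was 7.58 and 7.50 in NC, and 5.79 and 4.40 in KO. The 2 KO libraries differed from each other in these shares by more than the 2 NC libraries did, and the groups did not overlap for any of these 4 genes.

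**Figure D3:**
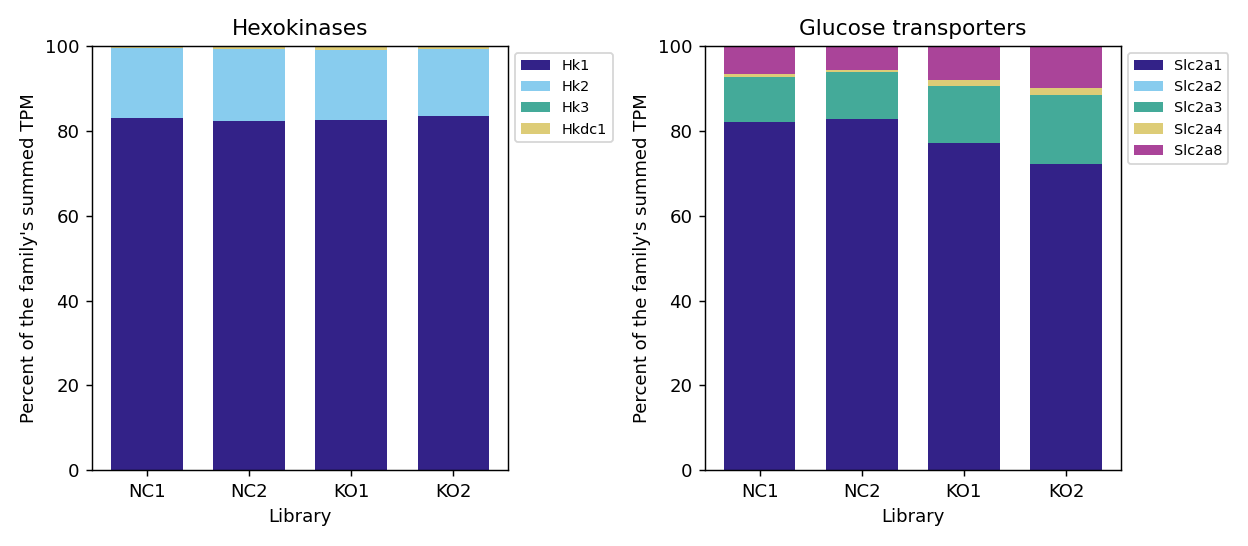
Share of each member in the summed TPM of its family, in percent, as stacked bars for the 4 libraries. The hexokinase bars look alike, with Hk1 between 82.4% and 83.5%, while the Slc2a1 part of the transporter bars falls from 82.7% at most in NC to 72.1% in KO 2.

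The values used here are per gene. RSEM, named in the submitters' processing notes, lists for each gene a mean length over its transcripts weighted by their estimated shares, and this length bounds those shares. At genes with 0 counts (Hk3, Slc2a2) the listed length equalled the plain mean of their GENCODE M21 transcript lengths. For Hk2 the listed length was 5156 and 5334 bases in NC 1 and NC 2, and 5506 and 5187 in KO 1 and KO 2. Since Hk2-201, the longest coding transcript, has 5513 bases and the next longest 2792, Hk2-201 made up between 86.9% and 92.9% of Hk2 transcripts in NC 1 and between 93.4% and 96.4% in NC 2. Its share lay between 99.7% and 99.9% for KO 1 and between 88.04% and 93.5% for KO 2. These ranges do not order the groups. Slc2a1-201 (3260 bases) made up at least 92.6% of Slc2a1 transcripts in each library. The listed length of Hkdc1 was 3517 bases in all 4 libraries, the length of Hkdc1-201, so its reads were all assigned to the coding transcript and not to the 3 retained-intron forms. For Hk1 the listed length was 3986 to 4024 bases. It bounds the share of Hk1-202 (4278 bases), which begins inside the window of the second start named above. This share lay between 31.5% and 92.7% in NC 1 and between 40.5% and 93.7% in NC 2. In KO 1 it lay between 40.0% and 93.6%, and in KO 2 between 33.0% and 92.9%. These bounds rest on the estimated shares and on GENCODE M21 transcript lengths. They were wide for Hk1, and for the other members they were too wide to be of use.

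The remaining carriers of hexoses were mostly near 0. Of 14 listed, 4 were tested, 2 were higher and none lower. Beside the counts of this list and of each list below stand the shares of all tested genes, 19.7% higher and 18.2% lower. The median log2 fold change of the carriers was 0.35, and it lay between 0.11 (unfiltered TPM) and 1.34 (DESeq2) elsewhere. Slc2a6, which encodes the lysosomal transporter GLUT6, had 13 and 28 counts in the NC libraries and 58 and 68 in the KO libraries, a rise of 1.54 in log2 units (SE 0.33, adjusted p = 0.000414). Slc50a1, the mammalian SWEET-type sugar transporter, rose by 0.54 (SE 0.10, adjusted p = 0.000114). Slc2a9, a urate transporter of the same family, had a log2 fold change of 0.17 (95% interval -0.44 to 0.78). Slc2a5, the fructose transporter, had 0 counts in NC and 3 and 2 in KO, Slc2a12 had at most 2, and Slc2a10 and Slc2a13 had 0 in every library.

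The next list joined other hexose kinases with hexokinase regulators and further sugar phosphate enzymes such as Gnpda1, and it did not move as a group. Of 10 genes, 7 were tested, 1 was higher, 1 lower and 5 passed in neither direction, and the median was 0.0046, or -0.16 without KO 1. Of the kinases tested, Khk alone passed, and Galk1, Galk2 and Nagk had log2 fold changes of 0.030, 0.0046 and 0.075. Adpgk, whose enzyme phosphorylates glucose with ADP, had a log2 fold change of -0.20 (95% interval -0.47 to 0.08, adjusted p = 0.259). Khk, the fructose kinase gene, rose by 1.13 (SE 0.32, adjusted p = 0.00606), with means of 1.80 ± 0.31 and 3.98 ± 0.49 CPM (n = 2 each, ± SD), a call lost without KO 1 (adjusted p = 0.0726) and with DESeq2 (adjusted p = 0.0968). Gnpda1, a glucosamine-6-phosphate deaminase gene, fell by 0.60 (SE 0.17, adjusted p = 0.00590), a call lost with DESeq2 (adjusted p = 0.0624) and in both filtered TPM fits (adjusted p = 0.124 and 0.128). Without NC 1 its log2 fold change was -0.29 (adjusted p = 0.272).

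The reverse step, the release of glucose from glucose 6-phosphate, was represented mainly by the ubiquitous phosphatase gene G6pc3, with a log2 fold change of -0.18 (95% interval -0.37 to 0.02, adjusted p = 0.151). The liver phosphatase gene G6pc had 0 counts in all libraries. Of 6 genes in this list 4 were tested and 1, the phosphate-linked antiporter gene Slc37a1, was higher (0.57, SE 0.15, adjusted p = 0.00386), a call lost without NC 1 (adjusted p = 0.0758), with DESeq2 (adjusted p = 0.0634) and in both filtered TPM fits (adjusted p = 0.0718 and 0.0745). The list's median was 0.23 and turned to -0.12 with DESeq2, -0.13 without a filter on low counts and -0.069 on log2(TPM + 1).

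Enzymes that use glucose 6-phosphate were all measured. Of 7 genes tested, 3 rose, none fell, and the median was 0.23. The 3 were Pgm1 (0.46, SE 0.09), which leads toward glycogen, Gpi1 (0.43, SE 0.09), the isomerase of the next glycolytic step, and H6pd (0.41, SE 0.10), the hexose-6-phosphate dehydrogenase gene of the endoplasmic reticulum. In both filtered TPM fits 2 of the list passed, and H6pd did not (adjusted p = 0.0710 in each). Among the later glycolytic enzymes 16 of 19 rows for 18 genes were tested, and 9 were higher, 1 lower and 6 passed in neither direction, with a median of 0.29. Aldoc (1.49), Pfkp (1.08) and Pgk1 (0.76) had the lowest p of those higher. Reads of genes with processed copies, such as Pgk1 and Gapdh, are uncertain.

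Genes that control where transporters reside moved both ways. Of 17 tested, 4 were higher, 5 lower and 8 passed in neither direction, where 19.7% of all tested genes were higher and 18.2% lower. The list's median was 0.031 (-0.011 without NC 2). Txnip, whose product promotes the internalisation of GLUT1, rose by 2.47 (SE 0.11), with means of 160.3 ± 7.15 and 886 ± 153 CPM (n = 2 each, ± SD), and its relative Arrdc4 by 0.97 (SE 0.10). Sort1, which encodes the sortilin of GLUT4 storage vesicles, rose by 0.51 (SE 0.09), and Aspscr1, which encodes the GLUT4 tether TUG, fell by 0.54 (SE 0.10). Aspscr1 had a log2 fold change of -0.35 without NC 1, and its call was lost in both filtered TPM fits (adjusted p = 0.0878 and 0.0941). Of the 3 channel genes on which hexokinases dock at the mitochondrion, Vdac3 fell by 0.44 (SE 0.09; adjusted p = 0.0520 on log2(TPM + 0.1)), and Vdac1 and Vdac2 had log2 fold changes of -0.094 and -0.13 (adjusted p = 0.433 and 0.249, edgeR quasi-likelihood).

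Factors with known targets among the members were compared last. Of 18 tested, 2 were higher, 7 lower and 9 passed in neither direction, with a median of -0.16 (0.026 in the unfiltered TPM fit). Mlxipl, which encodes the glucose-responsive factor ChREBP, rose by 2.45 (SE 0.16), with means of 5.42 ± 0.42 and 29.6 ± 1.97 CPM (n = 2 each, ± SD). Hnf4a fell by 0.995 (SE 0.09), Foxa2 by 0.89 (SE 0.09) and Trp53 by 0.71 (SE 0.09). The RNA of Hif1a, whose protein is controlled mainly by degradation, had a log2 fold change of -0.11 (adjusted p = 0.381), and that of Myc -0.24 (adjusted p = 0.0593).

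**Figure D4:**
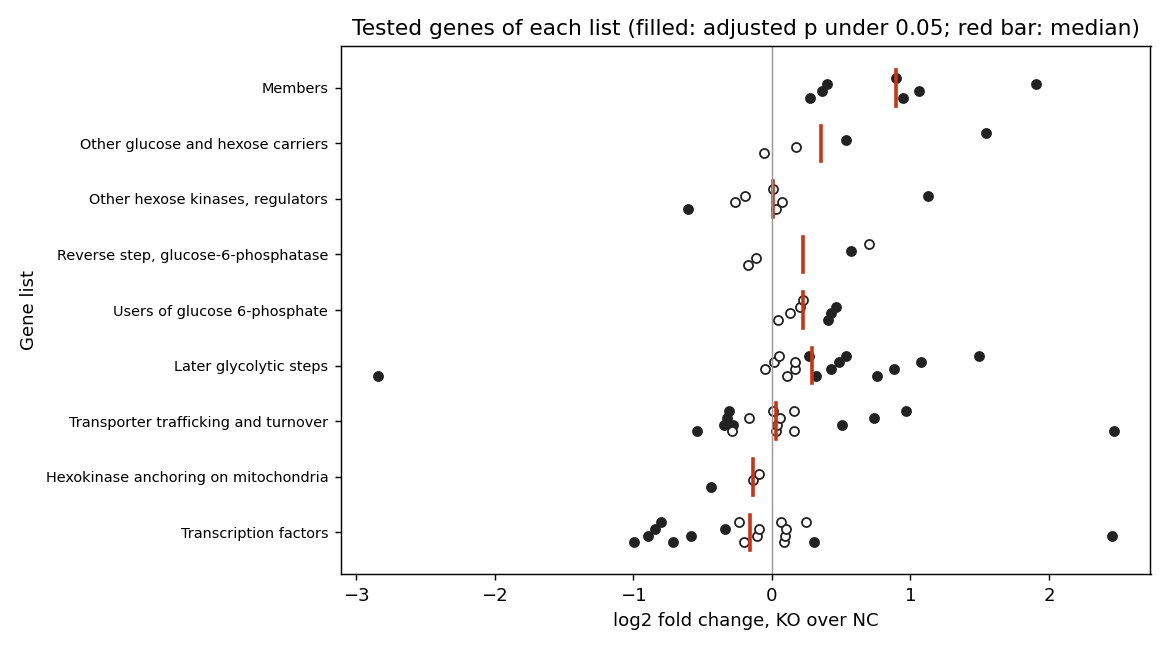
Log2 fold changes of KO over NC for the tested genes of each list, filled where the adjusted p was under 0.05, with a red bar at the median. The 7 members are all filled and to the right of 0 with a median of 0.90. All 7 users of glucose 6-phosphate (3 filled) and 14 of 16 later glycolytic genes (9 filled) also lie there. The lists of other kinases and regulators, trafficking genes and factors spread to both sides, and the 3 mitochondrial channel genes lie to the left.

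Markers of other cell types that carry these transcripts were read in the same libraries. Of the erythroid markers, Hbb-bt had 0 counts in every library, and the 6 genes summed to between 33.5 and 38.3 CPM in NC and between 37.3 and 37.9 in KO, nearly all of it Hba-a1 and Hba-a2. Among 7 leukocyte markers, Cd3e had 0 counts in every library. The leukocyte sum was between 24.1 and 27.6 CPM in NC and between 51.2 and 62.8 in KO, mostly Cd68, a lysosomal gene that rose by 1.20 (SE 0.12), and Ptprc was at or under 0.152 CPM. Endothelial markers summed to at most 1.06 CPM, with Cdh5, Tek and Emcn at 0. Of the fibroblast markers Dcn was high in all libraries, at 1468 and 1478 CPM in NC and 1605 and 1682 in KO, Lum had 0 counts, and Col1a1 (0.528 and 0.361 against 2.88 and 3.04 CPM) and Des (3.78 and 3.97 against 9.56 and 9.33) rose. The part of Cd68, Dcn, Des or Col1a1 in the members' changes was not tested.

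**Figure D5:**
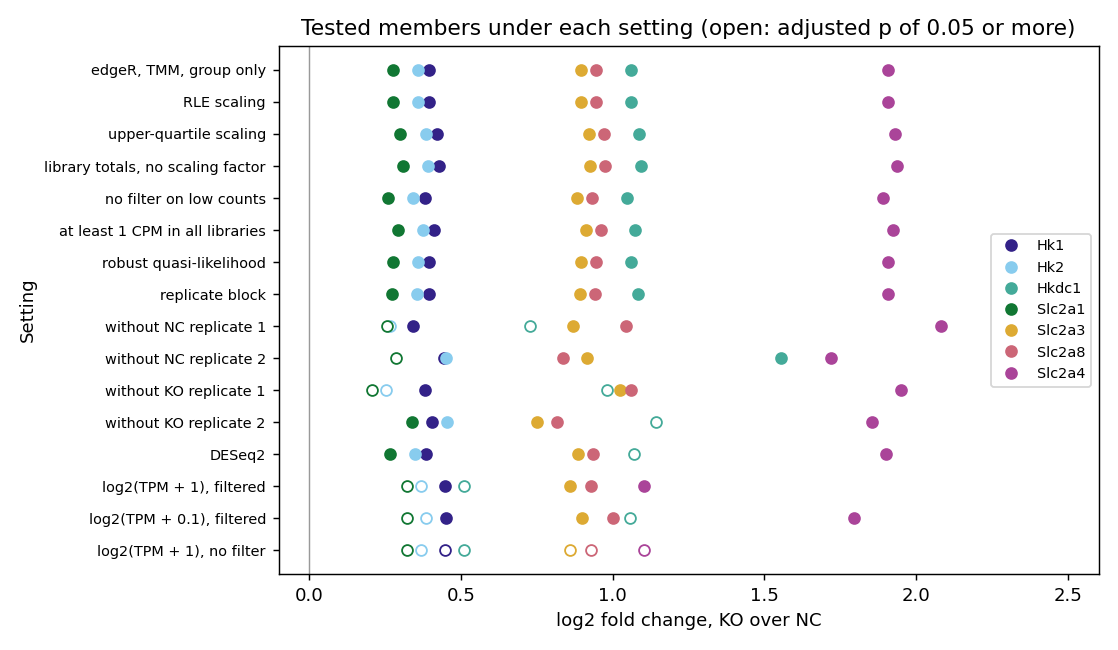
Log2 fold change of each tested member under the edgeR fit and 15 other settings, with open circles where the adjusted p was 0.05 or more. Every value lies above 0, the lowest being 0.21 for Slc2a1 without KO 1, and the open circles gather at Hk2, Hkdc1 and Slc2a1 and in the unfiltered TPM fit.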

How the data were processed

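Per the submitters' processing notes, FastQC, STAR, RSEM and DESeq2 were used with GRCm38 (mm10); versions, annotation and strand setting are not given in the sources used here. The authors' deposited tables hold, per the file headers, expected counts (estimated, not normalised), TPM and FPKM (scaled by length; FPKM was not used) and listed lengths, 1 file per sample. Libraries were directional, per the labels' protocols. The expected counts of all 9 members were whole numbers to 2 decimals in every library.

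Expected counts were rounded, filtered with filterByExpr (12510 genes kept) and scaled by TMM (0.981 to 1.02). The groups were compared with edgeR 4.0.16 (R 4.3.3) quasi-likelihood, with group as the only term and Benjamini-Hochberg adjustment over all genes tested. Alternatives used DESeq2 1.42.0, limma 3.58.1 on TPM, other scalings and filters, a replicate block and each library left out. The fit was tested on simulated counts with the same spread for every gene. It called 20% of genes changed 1.25-fold with the right sign, 80% of those changed 1.5-fold and 96% of those changed 2-fold. Small changes can therefore go uncalled. Coordinates and transcript lengths are from GENCODE M21 (53861 of 54838 IDs matched with version). Named genes are the members, Acvr2a, up to 4 genes per list with the lowest p past 0.05, genes of the same step as a member, and the 3 nearest profiles; some of these are not reported here. Hif1a, Myc, Vdac1, Vdac2, Gapdh and single markers were named after their values were seen. The members and lists were chosen with earlier results of these data known.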

Additional observations from a re-analysis of the deposited data

How the results depend on the processing

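All 7 members kept their direction under the 15 alternatives. With limma on log2(TPM + 1) without a filter no gene passed 0.05 in either direction (0 of 20640, with 4506 at an unadjusted p under 0.05) and 0 members did: Hk1 0.45, Hk2 0.37, Hkdc1 0.51, Slc2a1 0.32, Slc2a3 0.86, Slc2a4 1.10 and Slc2a8 0.93 on the log2 scale. With the filter and a pseudocount of 1, 1819 genes passed (1231 higher, 588 lower) and 4 members, with Hk2 at 0.37, Hkdc1 at 0.51 and Slc2a1 at 0.32 not passing. With a pseudocount of 0.1, 1686 passed (1144 higher, 542 lower) and 4 members, with Hk2 at 0.39, Hkdc1 at 1.06 and Slc2a1 at 0.32 not passing. The share of higher calls was thus larger on TPM than on counts. DESeq2 called 2868 genes (1417 higher, 1451 lower) and 6 members, Hkdc1 (1.07) not among them. The cause was not tested. Leaving out a library gave 4 to 6 members called, and log2 fold changes of 0.25 to 0.45 for Hk2, 0.73 to 1.55 for Hkdc1 and 0.21 to 0.34 for Slc2a1. For the shares of Hk1, Hk2, Slc2a1 and Slc2a3, 6 alternatives were tried. On expected counts, and with other genes in the family sum, the KO minus NC difference moved by less than the spread between libraries. The rest left out a library each. With 2 libraries per group, leaving one out cannot move the difference by more than that spread, so these alternatives decide nothing. Of the lists' medians and counts under the alternatives, 66 moved by more than the spread or 1.5 times and 174 did not.

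The replicate numbers were not said to pair libraries, and deviations of same-numbered libraries correlated at -0.012. With the replicate block 5006 genes and 7 members passed, and no member changed its call. Some genes had no spread within groups in the unfiltered TPM fit, and the part of these in its 0 calls was not tested.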
